A study of Homo sapiens with 16 samples.

Results

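Interferon response and RNA sensing genes are described here across tumours of mice that had received siRNA inside exosomes. The list held 43 genes, picked by symbol. No measured value entered the rule, but earlier results of these data were known when the list was made. Of these, 42 were measured in both expression tables, which hold 17318 and 18168 genes, and RSAD2 was not analysed here. No member symbol was repeated, so each gene is 1 row of each table. All 42 reached the filter on low values (at least 1 CPM, a read count scaled to a common library size, in as many tumours as the smaller group had).

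Cells detect double-stranded RNA, the chemical form of a siRNA, with receptors in the endosome (TLR3) and in the cytoplasm (RIG-I, encoded by DDX58, and MDA5, encoded by IFIH1). These signal through adaptors such as MAVS to the transcription factors IRF3 and IRF7, which switch on interferon genes. Secreted interferon then acts through a complex that holds STAT2 and IRF9 on a response element in the promoters of many interferon-stimulated genes, among them the OAS, IFIT, MX and ISG15 genes, whose products block viral replication. Sequence-dependent and length-dependent induction of this program is a known off-target effect of siRNA.

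The tumours were grown from U87, an established human glioblastoma line that carried luciferase here, implanted in the brains of nude mice. Nude mice lack mature T cells and keep innate immune cells. In the siRNA 1 experiment, 3 tumours came from mice given MSC exosomes (the labels' name for their source) with human anti-Myc siRNA#1 (Myc1), and 4 from mice given such exosomes with scramble-siRNA#1 (Scr1). In the siRNA 2 experiment, 5 tumours were labelled MSC exosomes with human anti-Myc siRNA#2 (Myc2) and 4 MSC exosomes with scramble-siRNA#2 (Scr2). All 16 were labelled WT, and each library came from its own mouse at euthanasia. Mice of the first experiment were dosed from day 28 on alternate days through the retro-orbital sinus, each dose holding 1e9 exosomes in 100 µl. Dosing of the second experiment is not reported here. RNA had an integrity number of at least 7.2. Every group received exosomes with a siRNA, so a response shared by both arms of an experiment cannot be seen in the comparisons. The age of the mice is not given in the sources used here, and untreated tumours were not analysed here.

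The values are quantile-normalized log2 CPM, made separately for each table, so levels are compared within a table only. Scr1 replicate 3 was shallow, with an estimated 3.35 M reads, and Scr2 replicate 4 had 10.5 M. The other libraries of the first experiment had 15.2 to 23.8 M reads and those of the second 15.2 to 29.5 M. MYC, the siRNA target, stood at 38.1, 26.5 and 14.3 CPM in Myc1 and at 21.2, 30.2, 50.7 and 108 CPM in Scr1. In the second experiment MYC stood at 55.3, 57.5, 47.0, 72.1 and 42.3 CPM in the tumours labelled Myc2 and at 40.2, 35.3, 47.1 and 25.9 CPM in Scr2, so its direction there goes against the label. The groups overlapped for MYC in both experiments. Scr2 replicates 4 and 1 had the lowest limma library weights of the 9 (0.301 and 0.561), and values are also given without both. Replicate 4 held the highest value of the 9 tumours for 27.1% of all genes and the lowest for 24.9%, while replicate 1 did so for 10.3% and 11.8%. All 8 markers of the U87 line summed to 8313 to 15744 CPM in Scr2 and to 13086 to 14989 CPM in Myc2, so the Scr2 range held that of Myc2. The tables held 0 mouse gene identifiers, so the response of the host's own cells was not analysed here, and how mouse reads were separated is not given in the sources used here. Of 10 markers of microglia and macrophages, 3 were in each table, and of 9 markers of lymphocytes and plasmacytoid dendritic cells, 1 was. The markers of microglia and macrophages summed to 332 to 403 CPM in Myc1 and 247 to 347 CPM in Scr1. In the second experiment they summed to 178 to 277 CPM in Myc2 and 163 to 268 CPM in Scr2. Of these markers, CD68 and CSF1R were above 1 CPM in every tumour, and which cells their reads came from was not tested. The lymphocyte marker CD2 stood at 0.17 to 1.33 CPM in the first experiment and at 0.93 to 7.92 CPM in the second. In bulk tumours, fewer cells of a type and less RNA per cell cannot be told apart.

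Many members share a promoter feature that many interferon-stimulated genes carry. Its high share among the members follows from the choice of such genes and is no result about these tumours. The core of the interferon-stimulated response element, the site of that complex and of other IRF proteins, was searched as GAAA, any 2 bases and GAAA on either strand (TTTC, 2 bases, TTTC on the other), with overlapping matches allowed. RefSeq promoter windows of GRCh38.p14, from 250 bases before to 50 after the gene start, were matched for 34 of the 43 listed genes. Matching was by gene identifier, or else by symbol, and the first window was used where a gene had several. At least 1 match lay in 22 of the 34 (64.7%), against 996 of 27305 windows of all genes (3.65%). A stricter form, in which the base before the second GAAA is T, lay in 14 (41.2%) against 218 (0.798%). The stretches around the matches follow for an RNA sensor in the cytoplasm, an endosomal sensor, the RNA-dependent kinase and 6 interferon-induced genes to which the comparisons below return. They run 5′ to 3′ on the strand of the gene, with the matches in capitals.
IFIH1 (chr2:162318685-162318868, minus strand): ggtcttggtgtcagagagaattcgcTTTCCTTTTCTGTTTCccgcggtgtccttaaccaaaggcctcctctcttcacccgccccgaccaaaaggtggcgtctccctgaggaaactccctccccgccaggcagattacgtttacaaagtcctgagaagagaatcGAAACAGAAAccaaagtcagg
TLR3 (chr4:186069127-186069161, plus strand): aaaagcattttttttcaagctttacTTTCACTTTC
EIF2AK2 (chr2:37156977-37157011, minus strand): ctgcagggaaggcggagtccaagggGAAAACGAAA
ISG15 (chr1:1013359-1013424, plus strand): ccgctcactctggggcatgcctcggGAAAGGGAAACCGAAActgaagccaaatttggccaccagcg
IFIT1 (chr10:89392482-89392554, plus strand): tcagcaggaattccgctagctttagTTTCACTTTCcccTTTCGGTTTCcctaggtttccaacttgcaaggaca
IFITM1 (chr11:313975-314043, plus strand): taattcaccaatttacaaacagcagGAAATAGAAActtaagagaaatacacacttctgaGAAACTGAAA
IFI6 (chr1:27672251-27672373, minus strand): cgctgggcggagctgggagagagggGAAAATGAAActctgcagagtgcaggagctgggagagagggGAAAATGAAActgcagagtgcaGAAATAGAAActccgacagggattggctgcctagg
PARP14 (chr3:122680785-122680838, plus strand): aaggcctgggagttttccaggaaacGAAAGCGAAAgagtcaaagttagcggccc
DTX3L (chr3:122564307-122564341, plus strand): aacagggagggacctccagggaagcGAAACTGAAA

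The IFIH1 stretch holds 3 matches, 2 of which overlap. ISG15 carries 2 overlapping matches, IFIT1 carries 2 separate ones and IFI6 carries 3. No match lay in the windows of DDX58, MAVS, STAT2, IRF1, IRF9, OAS1, RSAD2, SAMD9L, HERC6, PARP9, IFI35 and XAF1. The other genes without a matched window are DHX58, IRF3, IRF7, OAS2, OASL, IFIT2, IFITM2, MX2 and USP18. A match is a sequence of letters and not a measured binding site.

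The program was measurable in every tumour, over a wide range of levels. Per kilobase of exon (GENCODE 29 lengths), the highest median levels were those of IFITM3, a membrane protein that blocks viral entry, at 93.6 CPM per kilobase in the first experiment and 71.8 in the second. IFI44, an interferon-induced protein of little known function, followed at 59.8 and 63.3 CPM per kilobase. The lowest were the dynamin-like GTPases MX1 (0.139 and 0.147 CPM per kilobase) and MX2 (0.0828 and 0.0995). Among the sensors, DDX58 was the most abundant per length in both tables (11.7 and 12.7 CPM per kilobase) and IFIH1 the least (0.684 and 1.18). The lengths join all annotated exons of a gene, 4353 bases for DDX58 and 10753 for EIF2AK2, so the ranking depends on them. In CPM, EIF2AK2 was above DDX58 in every tumour. The levels of MX1, MX2, BST2, XAF1 and IFITM1 lay under 1 CPM in at least 1 tumour. In Scr1 replicate 3 the value of MX1 rested on about 2.3 estimated reads and that of IFITM1 on about 7.3.

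**Figure D1:**
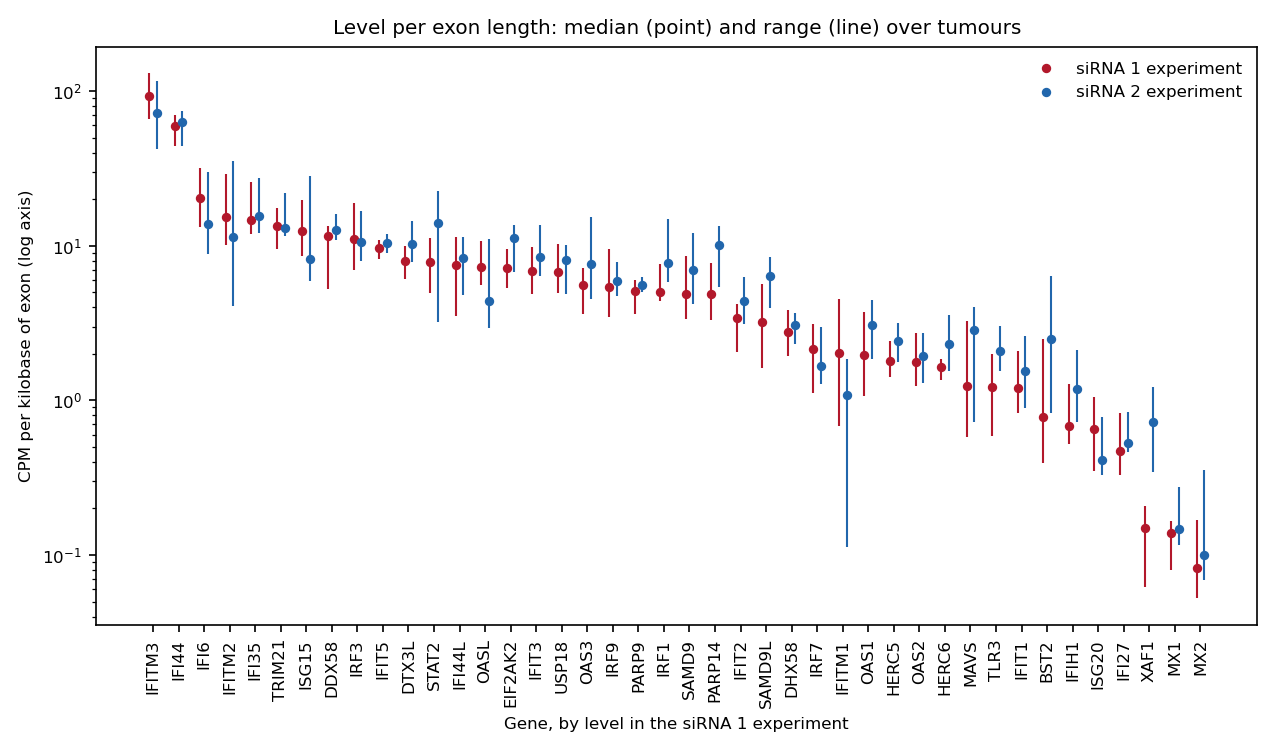
Level per kilobase of exon (CPM per kilobase, log axis) of the 42 measured genes, ordered by their level in the siRNA 1 experiment. Points are medians and lines the range over 7 tumours (red) or 9 tumours (blue); levels ran from 0.0828 for MX2 to 93.6 for IFITM3 in the first experiment.

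In the siRNA 1 experiment no member passed the adjusted threshold of 0.05 between Myc1 and Scr1 (limma with Benjamini-Hochberg adjustment over 13933 genes, smallest adjusted p of a member 0.996), as was true of all genes fitted (0.0%). At an unadjusted p under 0.05, limma gave 2 members higher in Myc1, IFITM1 and IFI6, against 1.96% of all genes, and 1 lower, OAS2, against 1.52%. These 3 of 42 stand beside 3.48% of all genes in either direction. A difference above 0 was found for 20 of the 42, against 49.5% of all genes. The median log2 difference of the members was -0.04, and that of all genes was -0.003. The members' median was -0.17 without Scr1 replicate 1 and turned to 0.028 without Scr1 replicate 3. Myc1 and Scr1 did not overlap for 1 member, IFITM1, with Myc1 higher, against 1.94% of all genes (4.21% in either direction). The count of higher members fell to 0 without Myc1 replicate 3 or without Scr1 replicate 1, and the count of lower members was 3 (OAS2, MAVS and DDX58) without Scr1 replicate 1.

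In the siRNA 2 experiment no member and no other gene passed the adjusted threshold (0.0% of 14208 genes fitted with limma), and the smallest adjusted p among members was 0.370. At an unadjusted p under 0.05, limma gave 6 members higher in the tumours labelled Myc2, against 7.0% of all genes, and 0 lower, against 6.36%. The 6 were STAT2, DTX3L, SAMD9L, XAF1, PARP14 and IRF3, and 13.4% of all genes lay under that p in either direction. A difference above 0 was found for 26 of the 42, against 48.2% of all genes, and the median log2 difference was 0.14, against -0.02 for all genes. That median ran from 0.074 (without Myc2 replicate 4) to 0.13 (without Scr2 replicate 4) with single tumours left out. The groups did not overlap for 1 member, DTX3L, with Myc2 higher, against 1.4% of all genes higher and 1.61% lower (3.01% in either direction). Without Scr2 replicates 1 and 4, the count of higher members fell to 1, IFITM3, against 1.96% of all genes, and none of the 6 was among them. All 6 differences stayed above 0 there, and fewer scramble tumours enter that fit. The p-values of both experiments measure the spread between mice. With these group sizes an exact permutation test can reach 0.0286 at the lowest in the first experiment and 0.00794 in the second.

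**Figure D2:**
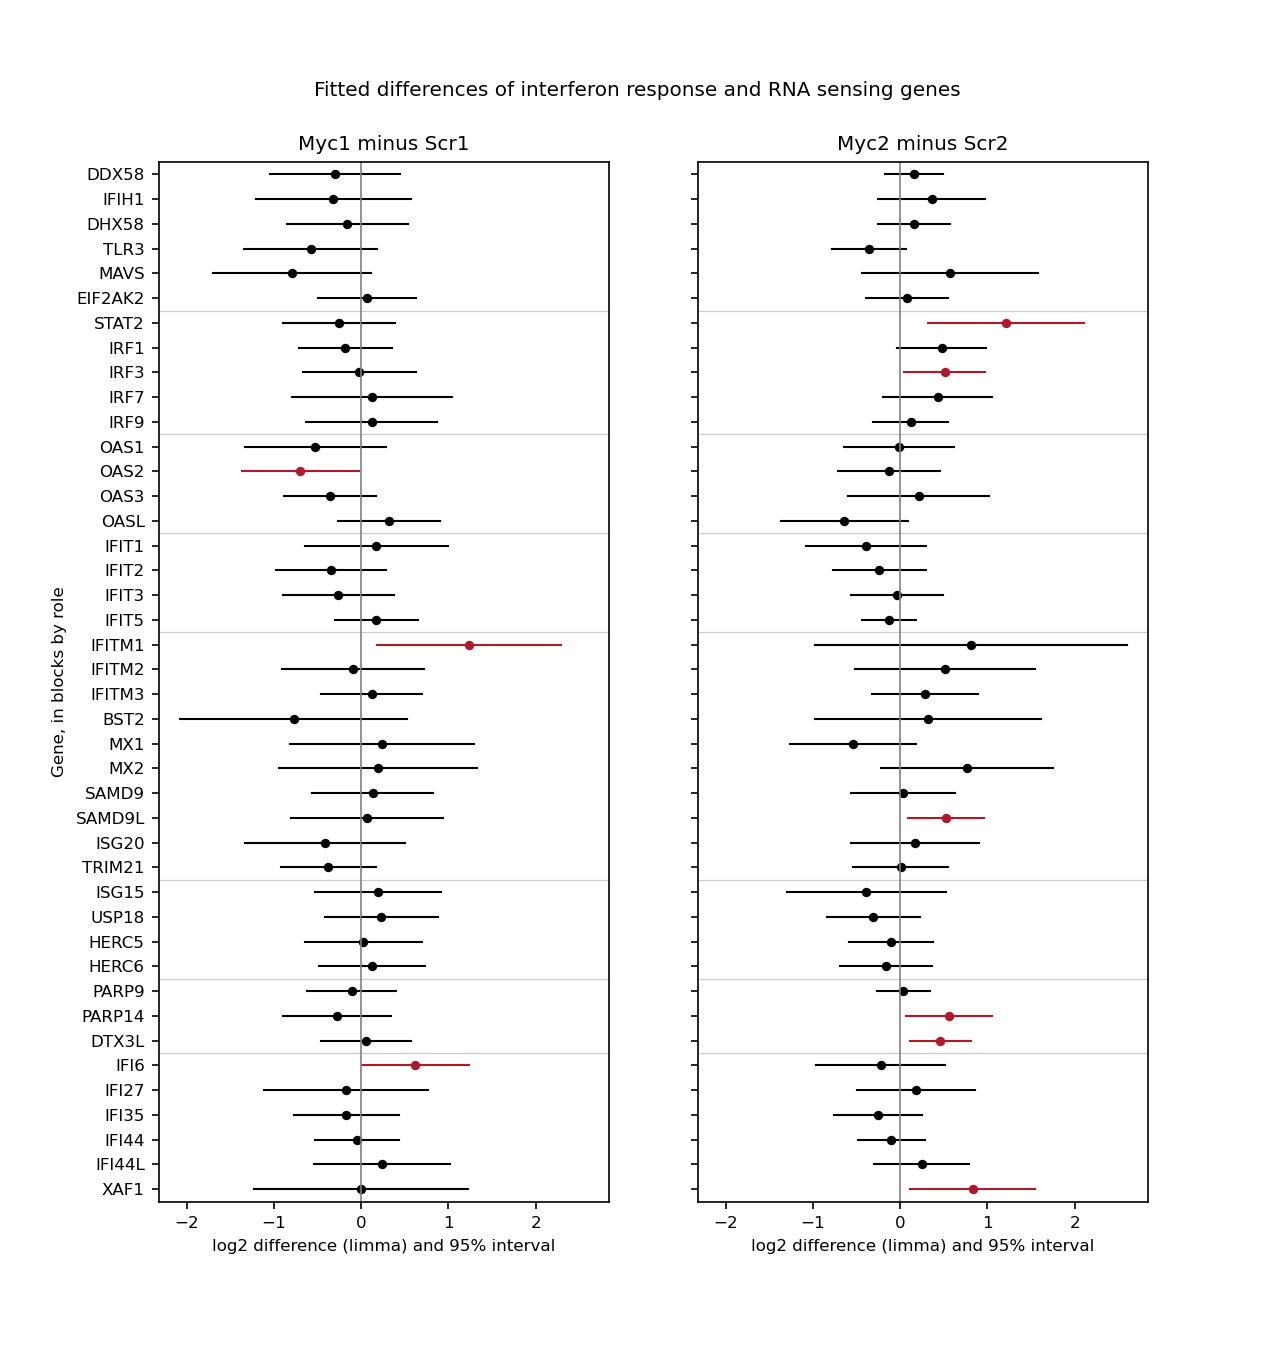
Log2 difference between anti-Myc and scramble tumours for each gene, in blocks by role, with its 95% interval from limma, for siRNA 1 (left) and siRNA 2 (right). Red marks an unadjusted p under 0.05 (3 genes on the left, 6 on the right), and none passed after adjustment over all genes.

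The RNA sensors and their adaptor lay mostly on the lower side in siRNA 1 and on the higher side in siRNA 2. In Myc1, 5 of 6 differences were below 0, with a median of -0.31, and in the tumours labelled Myc2, 5 of 6 were above 0, with a median of 0.16. None of the 6 reached an unadjusted p under 0.05 in either experiment, and every pair of groups overlapped.

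DDX58 (RIG-I, ENSG00000107201), which recognises the ends of short double-stranded RNA, stood at 26.4, 53.8 and 31.8 CPM in Myc1 and at 22.9, 58.5, 54.8 and 50.7 CPM in Scr1 (replicates in order, here and below). Scr1 replicate 1 was the lowest tumour of that experiment and the other Scr1 tumours lay close together near the top of the range. The log2 difference was -0.30 ± 0.34 (SE; limma adjusted p = 0.996), or -0.62 without Scr1 replicate 1 and -0.087 without Myc1 replicate 1. In siRNA 2 DDX58 stood at 59.6, 52.5, 69.9, 67.1 and 54.5 CPM in Myc2 and at 52.3, 55.1, 47.7 and 61.6 CPM in Scr2. These 9 values spanned a narrow range, with a difference of 0.16 ± 0.15 on the log2 scale (adjusted p = 0.581) and a 95% interval from -0.17 to 0.50. Without Scr2 replicate 3 it was 0.10.

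IFIH1 (MDA5), which recognises long double-stranded RNA, stood at 2.67, 5.29 and 2.78 CPM in Myc1 and at 2.78, 6.52, 5.11 and 3.49 CPM in Scr1. Its values in the tumours labelled Myc2 were 6.12, 10.8, 6.03, 5.58 and 6.32 CPM, and in Scr2 3.72, 5.64, 5.26 and 6.95 CPM. Myc2 replicate 2 stood above all other tumours, and the remaining Myc2 values lay inside the Scr2 range. The log2 differences were -0.32 ± 0.41 and 0.36 ± 0.28 in the first and second experiment. Leaving out Myc1 replicate 2 moved the first to -0.64, leaving out Scr1 replicate 2 moved it to -0.11, and leaving out Myc2 replicate 2 moved the second to 0.19. DHX58 (LGP2), which assists IFIH1 and restrains DDX58, stood at 7.43, 11.5 and 10.6 CPM in Myc1 and at 7.65, 9.26, 12.9 and 14.8 CPM in Scr1. In the second experiment its values were 10.9, 11.0, 14.1, 12.3 and 13.1 CPM in Myc2 and 11.4, 11.8, 11.8 and 8.90 CPM in Scr2. The groups overlapped in both, with log2 differences of -0.16 ± 0.32 and 0.16 ± 0.19. These became 0.033 without Myc1 replicate 1 and 0.063 without Scr2 replicate 4.

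TLR3, the endosomal receptor of double-stranded RNA, was the sensor with differences below 0 in both experiments. It stood at 9.33, 7.78 and 3.98 CPM in Myc1 and at 13.4, 10.8, 8.15 and 8.14 CPM in Scr1. The lowest value was that of Myc1 replicate 3, and without this tumour the log2 difference moved from -0.58 to -0.22. In siRNA 2 TLR3 stood at 10.5, 13.9, 12.3, 15.1 and 14.0 CPM in Myc2 and at 15.8, 17.9, 13.6 and 20.4 CPM in Scr2. Only Scr2 replicate 3 lay inside the Myc2 range, and the difference was -0.36 ± 0.19 (limma adjusted p = 0.386, exact permutation p = 0.0556).

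MAVS, the mitochondrial adaptor on which DDX58 and IFIH1 signals converge, stood at 11.2, 19.3 and 6.87 CPM in Myc1 and at 12.4, 22.2, 14.5 and 38.4 CPM in Scr1. Limma gave a log2 difference of -0.80 ± 0.42 (adjusted p = 0.996), with Scr1 replicate 4 the highest tumour and Myc1 replicate 3 the lowest. Without Myc1 replicate 3 it was -0.43. In the second experiment MAVS stood at 29.03, 37.3, 38.1, 33.3 and 20.5 CPM in Myc2 and at 8.49, 47.3, 37.8 and 12.3 CPM in Scr2. The Scr2 tumours fell on both sides of the Myc2 range, with replicates 1 and 4 below it. The difference of 0.57 ± 0.46 was 0.14 without Scr2 replicate 1 and 0.97 without Scr2 replicate 2, and it turned to -0.45 without Scr2 replicates 1 and 4.

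EIF2AK2, the kinase PKR that halts translation when it binds double-stranded RNA, stood at 101, 77.6 and 66.9 CPM in Myc1 and at 102, 99.7, 57.2 and 60.2 CPM in Scr1. In siRNA 2 its values were 115, 115, 146, 126.5 and 95.7 CPM in Myc2 and 120, 147, 124 and 72.7 CPM in Scr2. The groups overlapped broadly and the log2 differences were 0.06 ± 0.26 and 0.08 ± 0.21, with 95% intervals from -0.50 to 0.63 and from -0.39 to 0.54. The sign of either turned with single libraries left out.

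The transcription factors gave no difference with an unadjusted p under 0.05 in siRNA 1 (2 of 5 above 0, median -0.02). In siRNA 2 all 5 differences were above 0, with a median of 0.47, and 2 of the 5, STAT2 and IRF3, had such a p, where 48.2% of all genes were above 0 and 7.0% were higher with such a p. Neither had it without Scr2 replicates 1 and 4.

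STAT2, which carries the transactivation domain of the interferon-activated complex, gave the largest difference of any member in siRNA 2. It stood at 137, 138, 81.3, 93.1 and 98.4 CPM in the tumours labelled Myc2 and at 32.2, 85.3, 85.6 and 19.6 CPM in Scr2. Scr2 replicates 1 and 4 lay far below all other tumours, while replicates 2 and 3 lay above the lowest Myc2 tumour. On the log2 scale the difference was 1.21 ± 0.41 (limma adjusted p = 0.370, exact permutation p = 0.0238). It was 0.80 without Scr2 replicate 4 and 0.33 without Scr2 replicates 1 and 4. In the first experiment STAT2 stood at 30.1, 60.5 and 38.1 CPM in Myc1 and at 31.9, 54.7, 68.1 and 48.1 CPM in Scr1, and the groups overlapped (difference -0.25 ± 0.30).

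IRF3, which is activated by phosphorylation downstream of MAVS and TLR3, stood at 49.9, 61.8, 39.9, 34.1 and 64.0 CPM in Myc2 and at 30.3, 34.6, 41.3 and 31.3 CPM in Scr2. Of the 5 Myc2 tumours, replicates 3 and 4 lay inside the Scr2 range. The log2 difference was 0.51 ± 0.21 (limma adjusted p = 0.370, exact permutation p = 0.0794), and 0.36 without Scr2 replicates 1 and 4. Between Myc1 (33.5, 47.4 and 42.5 CPM) and Scr1 (26.6, 36.8, 71.2 and 42.1 CPM) IRF3 gave -0.02 ± 0.30. Of the exon length of IRF3, 19.3% overlaps BCL2L12 on the other strand, and the counting is not stated to use strand, so reads of the 2 genes cannot be told apart there.

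IRF1, an interferon-induced activator of the same gene family, stood at 49.2, 115, 68.4, 90.9 and 67.1 CPM in Myc2 and at 54.4, 60.4, 45.2 and 57.0 CPM in Scr2. Of the Myc2 tumours, 4 lay above every Scr2 tumour and replicate 1 lay among them. The difference was 0.47 ± 0.23 on the log2 scale (limma adjusted p = 0.372, exact permutation p = 0.103). In the first experiment IRF1 stood at 34.4, 39.3 and 47.4 CPM in Myc1 and at 38.6, 35.5, 59.3 and 52.2 CPM in Scr1. Its exons overlap those of C5orf56 over 22% of their length on the other strand. IRF7, the factor that amplifies interferon production, gave 0.12 ± 0.43 and 0.43 ± 0.28, and IRF9, the DNA-binding subunit of the STAT2 complex, gave 0.12 ± 0.35 and 0.12 ± 0.20. Of the IRF9 exon length, 48.4% is shared with another annotated gene on the same strand, so its counts are uncertain.

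The OAS family makes short oligoadenylates upon binding double-stranded RNA. In siRNA 1, 3 of the 4 members were lower in Myc1, with a median log2 difference of -0.44, and 1 of these, OAS2, had an unadjusted p under 0.05 (1.52% of all genes were lower with such a p). In siRNA 2, 3 of 4 were below 0, with a median of -0.07 and none under that p.

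OAS2 stood at 11.1, 8.27 and 7.72 CPM in Myc1 and at 9.24, 16.8, 16.4 and 17.2 CPM in Scr1. Scr1 replicate 1 lay among the Myc1 tumours, and the other 3 Scr1 tumours lay together above them. Limma gave a log2 difference of -0.70 ± 0.31 (adjusted p = 0.996, exact permutation p = 0.0857). OAS1 stood at 9.76, 9.74 and 5.30 CPM in Myc1 and at 7.13, 14.6, 18.4 and 9.04 CPM in Scr1, with a log2 difference of -0.53 ± 0.38. OAS3, the member that responds best to long RNA, stood at 46.9, 45.1 and 29.7 CPM in Myc1 and at 46.1, 58.9, 42.1 and 59.2 CPM in Scr1, with a difference of -0.36 ± 0.24. For all 3 the groups overlapped and Myc1 replicate 3 was the lowest tumour. Without that tumour the OAS1 and OAS3 differences moved to -0.23 and -0.15.

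In the second experiment OAS1 and OAS2 differed by -0.01 ± 0.29 and -0.13 ± 0.27 on the log2 scale. OAS3 spanned 37.4 to 126.01 CPM over the 9 tumours, with the 2 highest and the lowest value all in tumours labelled Myc2, and gave 0.21 ± 0.37.

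OASL, which has lost the synthetase activity and enhances RIG-I signalling, went the other way from its family in siRNA 1, at 32.2, 25.8 and 35.3 CPM in Myc1 and 23.0, 19.6, 37.7 and 22.4 CPM in Scr1. Scr1 replicate 3, the shallow library, was the highest of the 7, and the log2 difference was 0.31 ± 0.27. In siRNA 2 OASL stood at 13.3, 13.3, 20.2, 13.4 and 15.4 CPM in Myc2 and at 27.5, 10.3, 26.5 and 38.8 CPM in Scr2. Of the Scr2 tumours, 3 lay above all Myc2 tumours and replicate 2 below them. On the log2 scale the difference was -0.64 ± 0.33 (limma adjusted p = 0.377, exact permutation p = 0.127). It was -1.03 without Scr2 replicate 2, -0.39 without Scr2 replicate 4 and -0.15 without Scr2 replicates 1 and 4.

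The IFIT proteins bind viral RNA that lacks the host's cap modifications and block its translation. In siRNA 1, 2 of the 4 genes were above 0 and the differences ran from -0.34 (IFIT2) to 0.17 (IFIT1 and IFIT5). In siRNA 2 all 4 were below 0, from -0.39 ± 0.31 for IFIT1 to -0.04 ± 0.24 for IFIT3. None had an unadjusted p under 0.05 in either. IFIT1 and IFIT2 had their highest value of the second experiment in Scr2 replicate 4, the library with the lowest weight. The mean log2 CPM over the 4 genes was 4.70 in that tumour. It was 4.03 to 4.46 in the other Scr2 tumours and 3.88 to 4.53 in Myc2, so the shared direction in siRNA 2 leans in part on that tumour. Of the 4, IFIT5 varied least between tumours, within 33.0 to 43.9 CPM in the first experiment and 35.8 to 47.7 CPM in the second. IFIT1, with 2 promoter matches shown above, spanned 3.81 to 9.56 CPM and 4.11 to 12.1 CPM.

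Among the antiviral effectors, 6 of 10 differences were above 0 in siRNA 1 and 9 of 10 in siRNA 2. The medians were 0.09 and 0.30, and 1 effector in each experiment, IFITM1 and SAMD9L, was higher with an unadjusted p under 0.05. Of all genes, 49.5% and 48.2% were above 0, and 1.96% and 7.0% were higher with such a p. The siRNA 2 count includes TRIM21 (0.004) and SAMD9 (0.03), which lay close to 0. The mean log2 CPM over the 10 effectors was 3.70 and 3.49 in Myc2 replicates 2 and 3. It was 2.69 to 3.00 in the other Myc2 tumours and 2.52 to 3.17 in Scr2.

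IFITM1, which restricts viruses at the cell surface, stood at 2.33, 2.56 and 4.88 CPM in Myc1 and at 0.736, 1.69, 2.19 and 1.06 CPM in Scr1. Every Myc1 tumour was above every Scr1 tumour, though the highest Scr1 value, that of the shallow replicate 3, was close to the lowest Myc1 value. The log2 difference was 1.24 ± 0.49 (limma adjusted p = 0.996, exact permutation p = 0.0571). Leaving out Myc1 replicate 3 gave 0.90, leaving out Scr1 replicate 3 gave 1.49, and log2(CPM + 1) gave 0.80. In siRNA 2 IFITM1 stood at 1.60, 1.47, 2.00, 0.122 and 1.17 CPM in Myc2 and at 1.47, 0.402, 0.413 and 0.313 CPM in Scr2. The value of Myc2 replicate 4 rested on about 2.7 estimated reads. Here 4 of 5 Myc2 tumours lay above 3 of 4 Scr2 tumours, and the difference was 0.81 ± 0.82 (limma adjusted p = 0.602), or 1.54 without Myc2 replicate 4. It was 0.53 without Myc2 replicate 3, 1.31 without Scr2 replicate 1 and 0.44 with log2(CPM + 1). Of the IFITM1 exon length, 32.5% is shared with IFITM2, a near-identical neighbour, so reads may be split between them.

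IFITM2 gave -0.09 ± 0.38 and 0.51 ± 0.47 on the log2 scale. IFITM3 gave 0.12 ± 0.27 and 0.29 ± 0.28.

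BST2 (tetherin), which holds budding virions at the membrane, stood at 1.24, 0.626 and 0.438 CPM in Myc1 and at 0.788, 0.872, 2.78 and 1.06 CPM in Scr1. The highest value was that of the shallow Scr1 replicate 3, on about 9.3 estimated reads, and without it the log2 difference moved from -0.77 to -0.37. Leaving out Myc1 replicate 1 gave -1.19, leaving out Myc1 replicate 3 gave -0.44, and log2(CPM + 1) gave -0.38. In the second experiment BST2 spanned 0.929 to 7.16 CPM, with both ends in tumours labelled Myc2, and gave 0.32 ± 0.59.

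SAMD9L, a suppressor of translation related to SAMD9, stood at 41.1, 60.7, 50.9, 58.0 and 57.9 CPM in Myc2 and at 31.9, 45.7, 45.6 and 28.0 CPM in Scr2. The groups overlapped through Myc2 replicate 1 alone, which lay below Scr2 replicates 2 and 3. Limma gave a log2 difference of 0.53 ± 0.20 (adjusted p = 0.370, exact permutation p = 0.0317), and 0.22 without Scr2 replicates 1 and 4. In the first experiment SAMD9L ranged from 11.5 to 40.6 CPM with a difference of 0.06 ± 0.40. TRIM21, a cytoplasmic antibody receptor and ubiquitin ligase, stood at 18.4, 26.7 and 18.9 CPM in Myc1 and at 25.9, 23.3, 33.9 and 27.1 CPM in Scr1. Of the Myc1 tumours, replicate 2 lay among the Scr1 tumours and the other two below them (difference -0.38 ± 0.25). In siRNA 2 it gave 0.00 ± 0.25.

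MX1 stood between 0.69 and 1.43 CPM in the first experiment and between 0.99 and 2.38 CPM in the second. It gave 0.23 ± 0.49 in siRNA 1 and -0.54 ± 0.33 in siRNA 2 (limma adjusted p = 0.415, exact permutation p = 0.0238). MX2 gave 0.19 ± 0.53 and 0.77 ± 0.45. SAMD9 gave 0.13 ± 0.32 and 0.03 ± 0.27. ISG20, an exonuclease that degrades RNA, gave -0.41 ± 0.43 and 0.17 ± 0.34.

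The ISG15 system comprises the ubiquitin-like protein ISG15, the ligase HERC5 that attaches it, the related HERC6, and USP18, which removes it and also blocks the interferon receptor. All 4 differences were above 0 in siRNA 1, from 0.02 for HERC5 to 0.23 for USP18. All 4 were below 0 in siRNA 2, from -0.39 for ISG15 to -0.11 for HERC5. None had an unadjusted p under 0.05, and the groups overlapped for all of them. ISG15 itself spanned 8.13 to 18.5 CPM in the first experiment and 5.54 to 26.6 CPM in the second. All 4 genes had their highest value of the second experiment in Scr2 replicate 4, the library with the lowest weight. The mean log2 CPM over the 4 was 4.37 in that tumour. It was 3.32 to 3.83 in the other Scr2 tumours and 3.14 to 3.74 in Myc2, so the shared direction in siRNA 2 leans on that tumour.

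DTX3L and PARP9 form an ubiquitin ligase and ADP-ribosyltransferase complex, and PARP14 is an ADP-ribosyltransferase. All are interferon-induced. DTX3L stood at 73.2, 84.5, 60.2, 78.2 and 67.0 CPM in the tumours labelled Myc2 and at 47.3, 58.0, 59.9 and 46.1 CPM in Scr2. Every Myc2 tumour lay above every Scr2 tumour, though Myc2 replicate 3 and Scr2 replicate 3 were nearly equal. On the log2 scale the difference was 0.46 ± 0.16, with a 95% interval from 0.11 to 0.81 (limma adjusted p = 0.370, exact permutation p = 0.0159), and it was 0.29 without Scr2 replicates 1 and 4.

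PARP14 stood at 107, 141, 113, 110 and 83.4 CPM in Myc2 and at 59.4, 112, 78.9 and 56.8 CPM in Scr2. Scr2 replicate 2 lay among the Myc2 tumours and the other 3 below them. The log2 difference was 0.56 ± 0.23 (limma adjusted p = 0.370, exact permutation p = 0.0635), and 0.21 without Scr2 replicates 1 and 4. In the first experiment DTX3L stood at 47.0, 58.9 and 39.9 CPM in Myc1 and at 35.7, 57.1, 47.5 and 46.7 CPM in Scr1. There PARP14 stood at 39.1, 73.0 and 34.9 CPM in Myc1 and at 45.0, 81.4, 54.1 and 50.8 CPM in Scr1. Both overlapped, with differences of 0.06 ± 0.24 and -0.28 ± 0.29. PARP9 gave -0.11 ± 0.24 and 0.04 ± 0.14, and 2.43% of its exon length overlaps DTX3L on the other strand.

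The remaining interferon-induced genes were divided, with 3 of 6 above 0 in each experiment. IFI6, a mitochondrial and endoplasmic reticulum protein with 3 promoter matches, stood at 17.5, 19.9 and 27.6 CPM in Myc1 and at 11.4, 11.4, 17.6 and 16.004 CPM in Scr1. The groups touched at Myc1 replicate 1 and Scr1 replicate 3, which were nearly equal. Limma gave a log2 difference of 0.62 ± 0.29 (adjusted p = 0.996, exact permutation p = 0.0857). In the second experiment IFI6 spanned 7.62 to 25.8 CPM, both ends in Scr2, and gave -0.22 ± 0.34.

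XAF1, which promotes apoptosis by opposing the inhibitor XIAP, stood at 3.56, 8.12, 5.88, 6.62 and 4.82 CPM in Myc2 and at 2.72, 2.29, 5.12 and 3.04 CPM in Scr2. Scr2 replicate 3 lay among the Myc2 tumours and the other Scr2 tumours below them. On the log2 scale the difference was 0.83 ± 0.33 (limma adjusted p = 0.370, exact permutation p = 0.0476). It was 0.52 with library weights, the lowest of all alternatives, and so no lower than that without Scr2 replicates 1 and 4. In the first experiment XAF1 stood near 1 CPM in both groups, from 0.411 to 1.37 CPM, with a difference of 0.00 ± 0.57. IFI27 gave -0.18 ± 0.44 and 0.18 ± 0.31, and IFI35 gave -0.17 ± 0.28 and -0.26 ± 0.23. IFI44 gave -0.05 ± 0.22 and -0.10 ± 0.17, and IFI44L, its relative, gave 0.24 ± 0.36 and 0.24 ± 0.25.

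**Figure D3:**
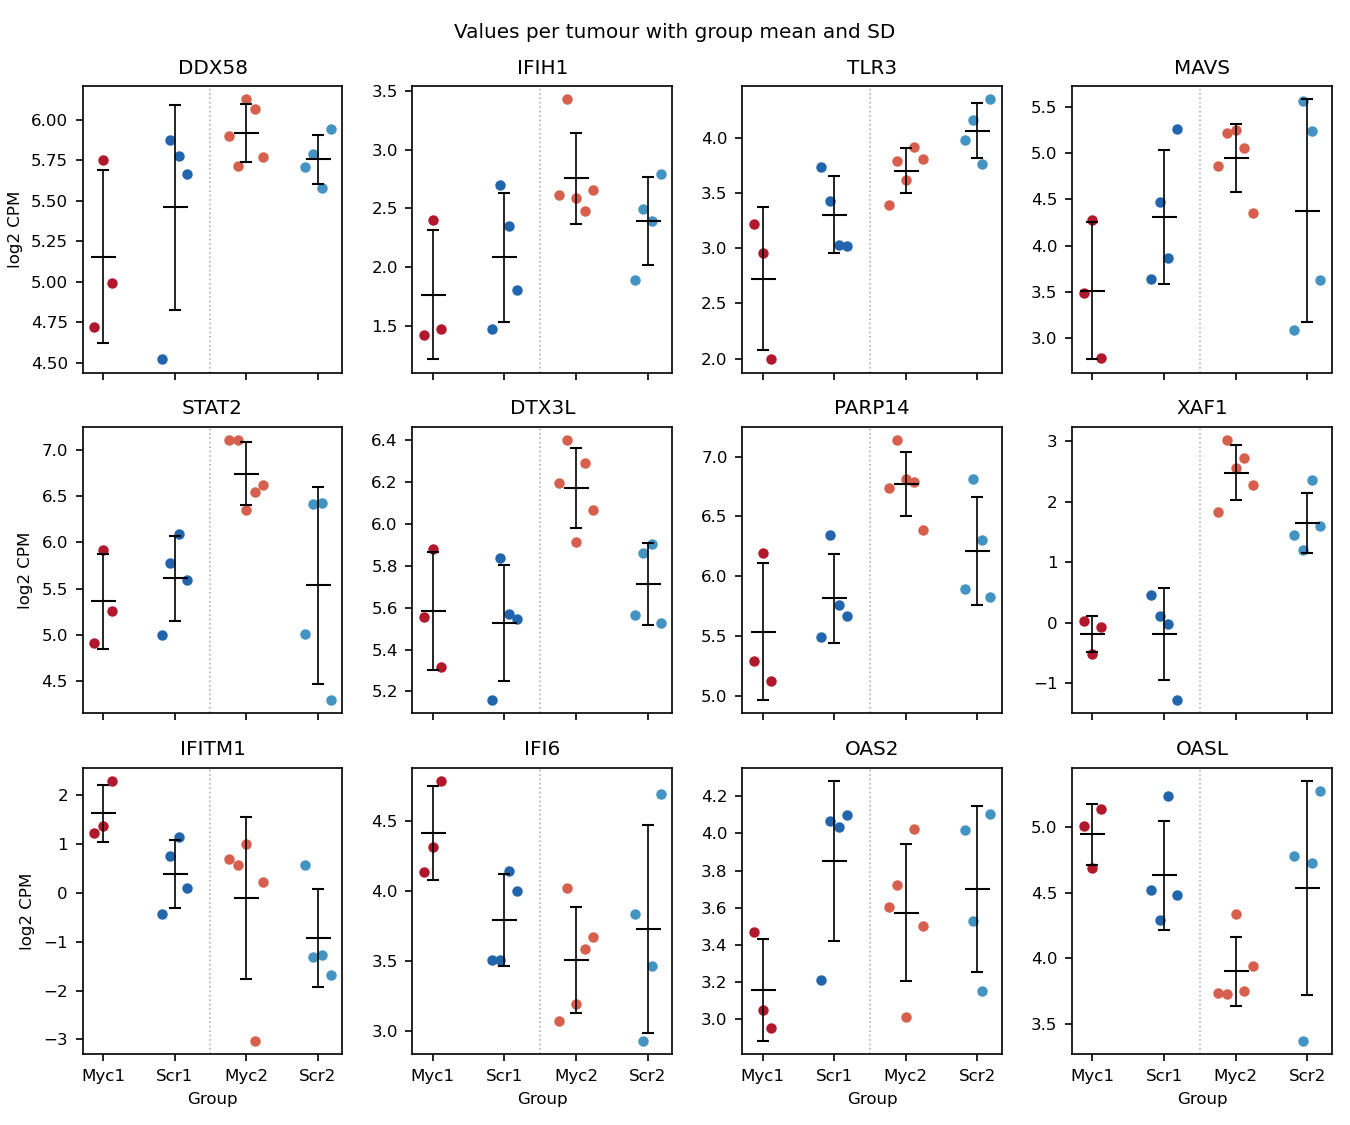
Log2 CPM of 12 genes in each tumour, with the group mean and SD as horizontal line and bars; the dotted line separates the tables, between which levels are not compared. In the siRNA 2 panels of STAT2 and MAVS, 2 of 4 Scr2 tumours lie far below the rest, and IFITM1 (siRNA 1) and DTX3L (siRNA 2) are the genes whose groups do not overlap.

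Whole tumours differed in the program within a group. These patterns were chosen after the values were seen. In the first experiment Scr1 replicate 3 held the highest value of the 7 tumours for 17 of 42 members (40.5%), against 15.9% of all genes fitted. They included STAT2, IRF1, IRF3, IRF7, IRF9, OAS1, OASL, IFIT3, IFITM3, USP18 and IFI44L. This is the library with 3.35 M estimated reads, and the part of depth in the pattern was not tested. Scr1 replicate 1 held the lowest value for 12 members (28.6%, against 13.8% of all genes), among them DDX58, IRF3, IRF7, IRF9, SAMD9L and DTX3L. The tumour most often highest and the tumour most often lowest were both Scr1. Myc1 replicate 3 held the lowest value for 11 members (26.2%, against 17.5%), among them TLR3, MAVS, OAS1, OAS2 and OAS3.

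In siRNA 2 Myc2 replicate 2 held the highest value of the 9 tumours for 17 members (40.5%, against 13.4% of all genes). They included IFIH1, STAT2, IRF1, IRF7, OAS1, OAS3, IFITM2, IFITM3, PARP14, DTX3L and XAF1. Scr2 replicate 4 held the highest value for 13 members (31.0%), close to its share of all genes (27.1%). Those 13 held TLR3, OASL, IFIT1, IFIT2, ISG15, USP18, HERC5 and HERC6, while STAT2, PARP14, DTX3L, SAMD9L and EIF2AK2 were lowest in the same tumour. The mean log2 CPM over the 42 members was 3.84 ± 0.15 (SD, n = 3) in Myc1 and 3.90 ± 0.25 (n = 4) in Scr1. It was 4.22 ± 0.19 (n = 5) in Myc2 and 4.08 ± 0.12 (n = 4) in Scr2, and both pairs of groups overlapped.

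**Figure D4:**
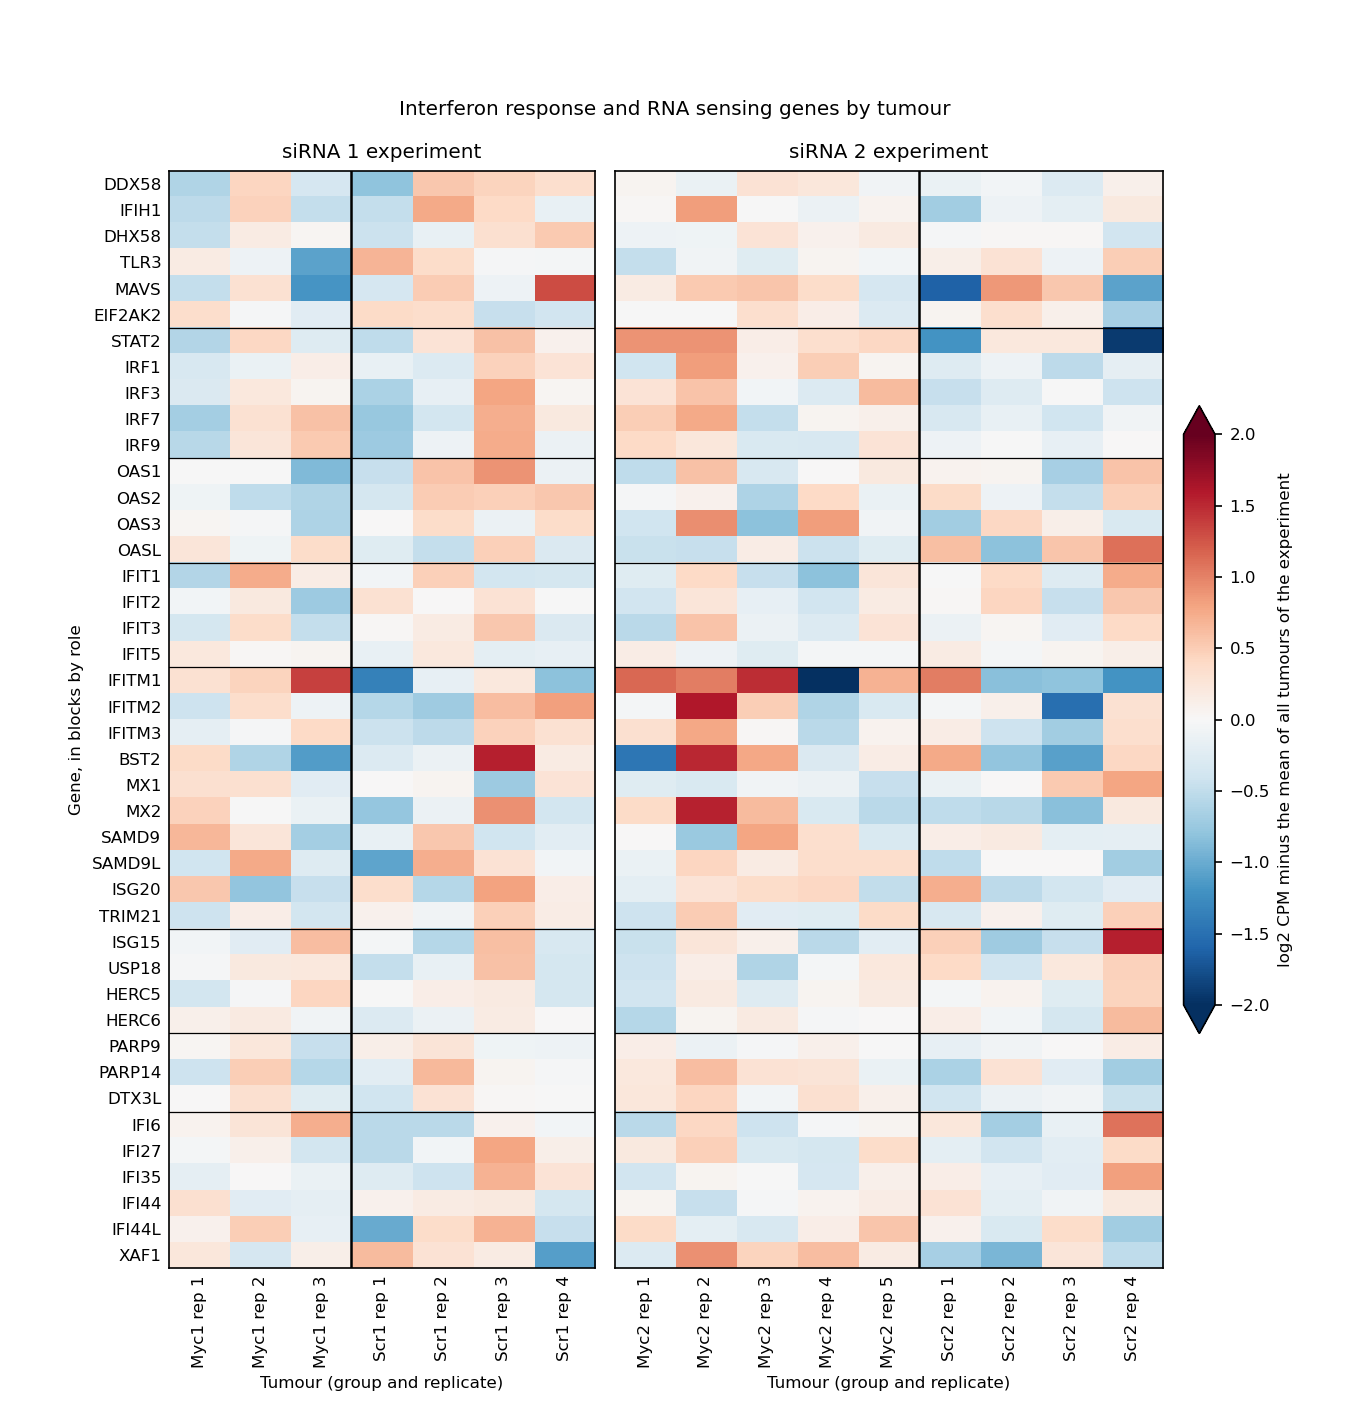
Log2 CPM of each gene in each tumour minus the mean of all tumours of its experiment, in blocks by role; colours run from -2 to 2 and a vertical line separates the groups. Myc2 replicate 2 and Scr1 replicate 3 show the most genes at their highest value (17 each), and Scr2 replicate 4 is high for ISG15 and low for STAT2.

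The experiments were compared through the difference between their effects, Myc1 minus Scr1 less Myc2 minus Scr2, in a joint limma fit. Each siRNA was used in its own experiment, so the part of the siRNA and that of the experiment cannot be told apart. No member passed the adjusted threshold (0.0% of 14891 genes did), and the smallest adjusted p of a member was 0.532. STAT2 and PARP14, 2 of 42, had an unadjusted p under 0.05, against 8.74% of all genes, and both effects were more negative in siRNA 1. The difference of effects was -1.46 ± 0.57 for STAT2 and -0.84 ± 0.38 for PARP14 on the log2 scale. It was 0.95 for OASL, -1.37 for MAVS and -0.66 for IRF1, the next in order. Without Scr2 replicates 1 and 4, the STAT2 value was -0.58 and the MAVS value -0.34, and OAS2 was the single member with an unadjusted p under 0.05. No member was lower with such a p without Myc1 replicate 1. The direction was the same in both experiments for 18 of 42 members (42.9%), against 45.7% of 13656 genes fitted in both. Of these, 11 were above 0 in both, among them IFITM1, IFITM3, IRF7, IRF9 and IFI44L, and 7 were below 0 in both, among them TLR3, OAS1, OAS2 and IFIT2.

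Other genes of the pathway were taken from a list of 101 that are no members. The 10 interferon genes on it, IFNB1 and IFNG among them, had no values in either experiment, and why was not tested. They and the chemokines CXCL9, CXCL10 and CXCL11 were not analysed here. The 10 receptor and JAK-STAT genes were measured in both tables, with 6 of 10 above 0 in each experiment. The interferon receptor subunit IFNAR1 gave 0.36 ± 0.24 and 0.06 ± 0.15.

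Of the 79 pathway genes fitted in siRNA 1, 20 were above 0 (49.5% of all genes were), with a median log2 difference of -0.18. At an unadjusted p under 0.05, 1 was higher and 4 were lower in limma, against 1.96% and 1.52% of all genes, and 5 had non-overlapping groups with Myc1 below, against 2.27%. TRIM14, which links MAVS to further signalling, had a log2 CPM of 4.76 ± 0.42 (SD, n = 3) among Myc1 tumours and 5.59 ± 0.40 (n = 4) among Scr1 tumours, a difference of -0.83 ± 0.28 (limma adjusted p = 0.996). MYD88, the adaptor of most Toll-like receptors, differed by -0.50 ± 0.21 and NLRC5, a transactivator of MHC class I genes, by -0.56 ± 0.24. RTP4 differed by -1.45 ± 0.55. Myc1 lay wholly below Scr1 for all 4 of these genes. RNF125, a ligase that marks DDX58 for degradation, was the gene on the higher side, at 1.10 ± 0.43.

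In siRNA 2, 41 of 79 were above 0 (48.2% of all genes were), with a median of 0.01, and 5 were higher and 4 lower at an unadjusted p under 0.05 in limma, against 7.0% and 6.36% of all genes. The groups did not overlap for 1 pathway gene with Myc2 higher, the receptor gene IFNLR1 (0.49 ± 0.26), against 1.4% of all genes. They did not overlap for 2 with Myc2 lower, against 1.61% of all genes. CASP1, the inflammasome protease, was lower in every Myc2 tumour than in every Scr2 tumour, at 2.56 ± 0.44 log2 CPM (SD, n = 5) against 3.42 ± 0.47 (n = 4). Its difference was -0.86 ± 0.30 (limma adjusted p = 0.370). IKBKE, a kinase that activates IRF3, differed by -0.56 ± 0.18 and TARBP2, an RNA-binding partner of Dicer and inhibitor of PKR, by -0.49 ± 0.20. PARP10 differed by 0.86 ± 0.29 and SHFL by 0.43 ± 0.17, with the higher values in Myc2. No pathway gene passed the adjusted threshold in either experiment.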

How the data were processed

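Bulk RNA sequencing of 16 tumours was analysed from 2 deposited tables of log2 values per human Ensembl gene. The submitters' processing notes name bcl2fastq 2.20.0, STAR 2.6.0b and Picard, with builds hg19 and mm10. No source used here names the counting tool, the annotation or the use of strand. The deposited log2 values are log2 CPM by their own sums (995054 to 998392 CPM per tumour). Their near-equal distributions were read as quantile normalization within a table, under which a shift of most genes at once cannot be seen.

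Comparisons were run in limma 3.58.1 (R 4.3.3, trend and robust settings) on the deposited values of all genes with at least 1 CPM in 3 (siRNA 1 and the joint fit) or 4 (siRNA 2) tumours. P-values were adjusted by the Benjamini-Hochberg method over all genes fitted, with a threshold of 0.05. Exact two-sided permutation of labels (35 and 126 arrangements, 84 tests over members) tested single members; after adjustment over all genes the smallest of these was 0.989 in siRNA 1 and 0.432 in siRNA 2. Library sizes were estimated from the spacing of low values (steps 2 to 20). The limma script was tested on simulated data. Python 3.11.15 with pandas 2.3.3 and scipy 1.17.1 did the rest.

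Values per tumour were given for the 6 sensors and adaptor, the 8 members with the smallest limma p and the 3 with the largest difference in each comparison, the 5 with the smallest p for the difference between experiments, and the 5 pathway genes with the smallest p in each comparison by name. Members and lists were chosen with earlier results of these data known. Some pathway genes are counted but their values are not reported here. Alternatives were log2(CPM + 1), log2(CPM + 0.1), no filter, no trend or robust setting, library weights, a joint fit, each library left out, Scr2 replicates 1 and 4 left out, summing repeated symbols (no member had any) and a stricter promoter motif.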

Additional observations from a re-analysis of the deposited data

Results flagged for a closer look

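Of 66 sets of values searched for a tumour far from the others, 5 held such a value, where chance would give about 3.3 (1 in 20). Each of the 5 was a named member in a group of at least 4 tumours. DDX58 stood at 4.52 log2 CPM in Scr1 replicate 1, with the other Scr1 tumours between 5.66 and 5.87. OAS2 was low in the same tumour, at 3.21 log2 CPM against 4.04 to 4.10. DHX58 stood at 3.15 log2 CPM in Scr2 replicate 4, against 3.52 to 3.57 in the other Scr2 tumours. IFIH1 stood at 3.43 log2 CPM in Myc2 replicate 2, against 2.48 to 2.66. IFITM1 stood at -3.03 log2 CPM in Myc2 replicate 4, against 0.22 to 1.00, and rested there on about 2.7 estimated reads.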

How the results depend on the processing

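No member passed the adjusted threshold of 0.05 under any alternative run. At an unadjusted p under 0.05 in limma, the siRNA 1 counts were 2 higher and 1 lower. The lower count was 0 with library weights, and the higher count was 0 in the joint fit; leaving out single tumours gave 0 to 2 higher and 0 to 3 lower. For siRNA 2 (6 higher, 0 lower), library weights gave 2 higher and 1 lower, the joint fit and the fit with no trend or robust setting gave 1 lower, and leaving out Scr2 replicates 1 and 4 gave 1 higher, IFITM3. Leaving out single tumours gave 2 to 7 higher, with 2 without Myc2 replicate 2 or Scr2 replicate 1, and 0 to 1 lower. For the difference between experiments (0 higher, 2 lower), library weights gave 1 higher and 0 lower, log2(CPM + 1) gave 1 higher, and no trend or robust setting gave 1 higher and 1 lower. Without Scr2 replicates 1 and 4 it gave 1 lower, OAS2, and neither STAT2 nor PARP14, and leaving out single tumours gave 0 to 2 higher and 0 to 4 lower. The promoter share was 41.2% under the stricter motif.

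Signs were followed for the sensors and adaptor and for the members with the smallest p or largest difference in each experiment. Turns among the other members are not reported here. Among those followed, signs turned in siRNA 1 for DHX58, at 0.033 without Myc1 replicate 1 (-0.32 to 0.033 over single tumours left out). EIF2AK2 turned there to -0.10, -0.078 and -0.054 without Myc1 replicate 1, Scr1 replicate 3 or Scr1 replicate 4 (-0.10 to 0.20 over all). In siRNA 2 the signs of 2 of those followed turned. EIF2AK2 gave -0.085 with library weights and -0.19 without Scr2 replicates 1 and 4. It ran from -0.13 to 0.21 over single tumours left out, with the lowest without Scr2 replicate 4. MAVS gave -0.45 without Scr2 replicates 1 and 4. Fewer samples enter the fits without libraries, and the other causes were not tested. No paired analysis was possible because the labels give mouse numbers and no replicate number shared between groups. The inferred quantile normalization, 3 to 5 tumours a group and values of a few reads for IFITM1, MX1 and XAF1 in the shallow library limit what could be detected.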
